A study of Arabidopsis thaliana with 6 samples.

Results

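The Aux/IAA repressors and the activator auxin response factors (ARFs) of Arabidopsis thaliana were compared between seedlings of the hy5-215 mutant and wild type by RNA-seq. The members were taken by locus identifier and are the 29 Aux/IAA genes IAA1 to IAA20 and IAA26 to IAA34, and the 5 activator ARF genes ARF5, ARF6, ARF7, ARF8 and ARF19. All 34 were among the 26984 nuclear protein-coding genes with values. The wild type was the accession Col-0, with libraries numbered 1 to 3, and the mutant was hy5-215, with libraries numbered 4 to 6. This allele is a lesion of HY5, which encodes a bZIP transcription factor that promotes light-dependent seedling development. Every library came from seedlings 7 days old, grown in short days and collected at zeitgeber time 20 h, which falls in the night, so organs and cell types were mixed. The values are FPKM, fragments scaled to gene length and to library size, a scale on which levels of different genes can be compared per length.

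Auxin acts by removing repressors. Aux/IAA proteins bind ARFs on the promoters of auxin-induced genes and bring in TOPLESS co-repressors. Auxin joins an Aux/IAA protein to an F-box receptor of the TIR1/AFB family, and the Aux/IAA protein is then tagged for degradation, which frees the activator ARFs. Many Aux/IAA genes are themselves switched on by ARFs, so the repressors are made again as a negative feedback, and their transcripts are widely used as readouts of auxin response in seedlings. The auxin-dependent removal rests on a degron, a short motif with a glycine, tryptophan, proline, proline core, in the second conserved domain of the protein.

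HY5 (AT5G11260) measured 13.4, 13.0 and 13.9 FPKM in wild-type libraries 1, 2 and 3, against 3.04, 1.88 and 3.02 FPKM in hy5 libraries 4, 5 and 6. The mutant libraries were all below the wild type, at 19.7% of its mean and in the direction of the label. Summed FPKM per library lay between 528554 and 556418. The lowest values, which move in steps of a fragment, gave the other 5 libraries a depth between 0.938 and 1.03 of wild-type library 1, and the number of reads per gene was not derived. Whether libraries of a genotype were grown separately is not in the labels, and the spread behind each p-value may therefore be technical. Of the 17205 genes tested with limma, 22.8% were called, 11.7% as higher and 11.1% as lower in hy5, at a Benjamini-Hochberg adjusted p of 0.05, and their median log2 fold change was -0.001. A gene was tested where it had at least 1 FPKM in at least 3 libraries.

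The sequence that makes an Aux/IAA protein a target of the auxin receptors was looked for first, as the in-frame codons GGN, TGG, CCN and CCN in a row in the coding sequence of each member. It was present in 23 of the 29 Aux/IAA genes. The 36 bases around it are printed for the 11 Aux/IAA genes whose level was called different between the genotypes, with the core codons in capitals, read in the sense of the gene from RefSeq TAIR10.1, and each lies within a single coding exon.
IAA1, chr4:8361433-8361468, plus strand: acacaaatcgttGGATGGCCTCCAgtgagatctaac
IAA2, chr3:8181384-8181419, minus strand: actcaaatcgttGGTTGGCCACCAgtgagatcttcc
IAA3, chr1:1129016-1129051, minus strand: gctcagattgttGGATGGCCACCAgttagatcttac
IAA4, chr5:17550737-17550772, plus strand: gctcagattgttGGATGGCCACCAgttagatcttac
IAA6, chr1:19673320-19673355, minus strand: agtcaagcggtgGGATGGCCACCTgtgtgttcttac
IAA7, chr3:8195565-8195600, plus strand: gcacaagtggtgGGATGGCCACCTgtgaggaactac
IAA9, chr5:26255101-26255136, plus strand: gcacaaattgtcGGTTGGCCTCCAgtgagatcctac
IAA16, chr3:1289727-1289762, minus strand: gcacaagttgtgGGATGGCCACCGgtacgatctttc
IAA19, chr3:5264304-5264339, plus strand: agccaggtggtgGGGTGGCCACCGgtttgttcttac
IAA28, chr5:9033809-9033844, plus strand: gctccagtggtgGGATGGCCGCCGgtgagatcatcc
IAA29, chr4:15583939-15583974, plus strand: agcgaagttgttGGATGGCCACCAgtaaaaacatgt
IAA3 and IAA4 had the same letters over all 36 bases. The codons were not found in IAA20, IAA30, IAA31, IAA32, IAA33 and IAA34. IAA31 had the tryptophan, proline and proline codons without the glycine codon in front of them. No library reached 1 FPKM for any of these 6 genes, the highest value being 0.977 FPKM for IAA30, and none of them was tested. Of the 23 genes with the core, 21 were tested, and IAA5 and IAA15 were below the filter.

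In hy5, 10 of the 29 Aux/IAA genes rose, 1 fell, 10 were tested and did not pass, and 8 were below the filter. Those that rose were IAA1, IAA2, IAA3, IAA4, IAA6, IAA7, IAA9, IAA16, IAA19 and IAA29, and the one that fell was IAA28. None of the 5 activator ARFs passed. The 10 rises were 47.6% of the 21 Aux/IAA genes tested, beside 11.7% of all genes tested, and the 1 fall was 4.76%, beside 11.1%. IAA6 reached the filter only through its hy5 values, so it could be tested only because it was high there. With a filter on the mean over all 6 libraries, chosen after seeing the data, IAA6 drops out and 9 genes rose. The median log2 fold change of the 21 tested Aux/IAA genes was 0.33, and it was 0.17 over all 29 without the filter. Groups did not overlap, with hy5 higher, in 12 of the tested Aux/IAA genes, a pattern that 20.6% of all tested genes had. Each log2 fold change is the difference of mean log2(FPKM + 1) between mutant and wild type, and it comes out too small for genes at low levels. In seedlings, more cells of a type and more transcript per cell cannot be told apart.

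**Figure D1:**
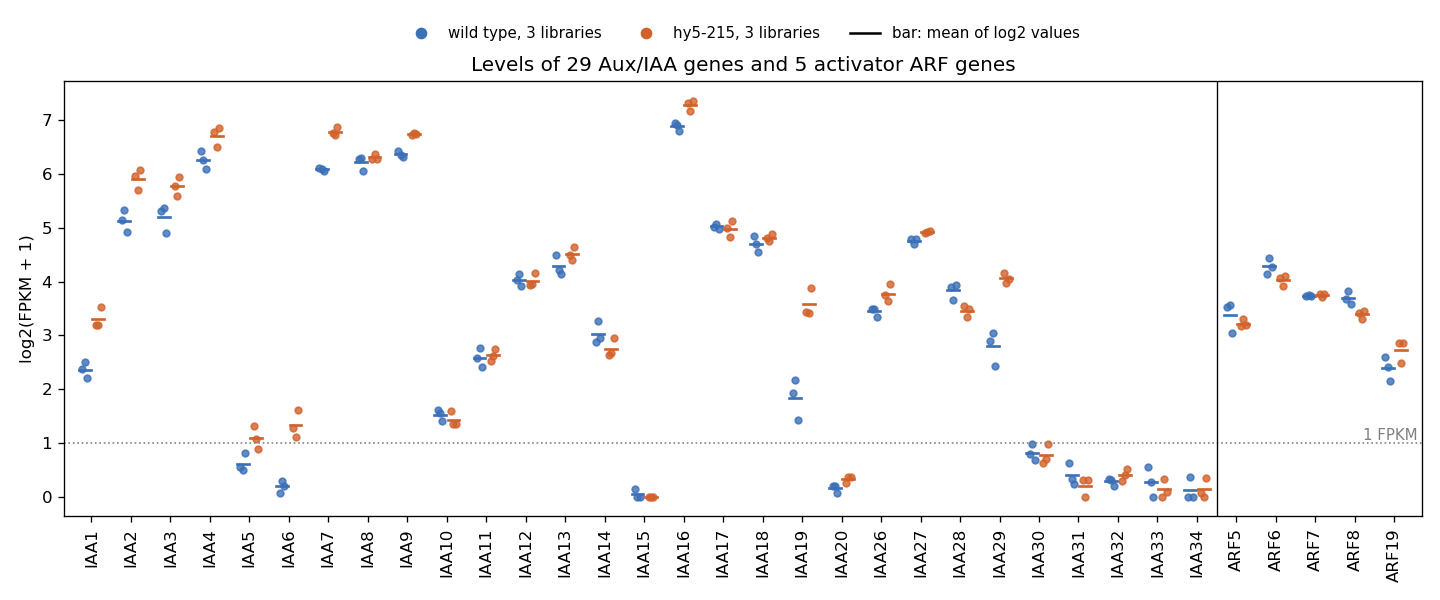
Levels of the 34 members on the log2(FPKM + 1) axis, with 1 point per library, blue for wild type, orange for hy5-215 and a bar for the mean of the 3 log2 values. IAA16 is the most abundant Aux/IAA in both genotypes, IAA19, IAA29, IAA6 and IAA1 show the widest gaps between colours, and IAA15, IAA20 and IAA30 to IAA34 lie below the dotted line at 1 FPKM.

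**Figure D2:**
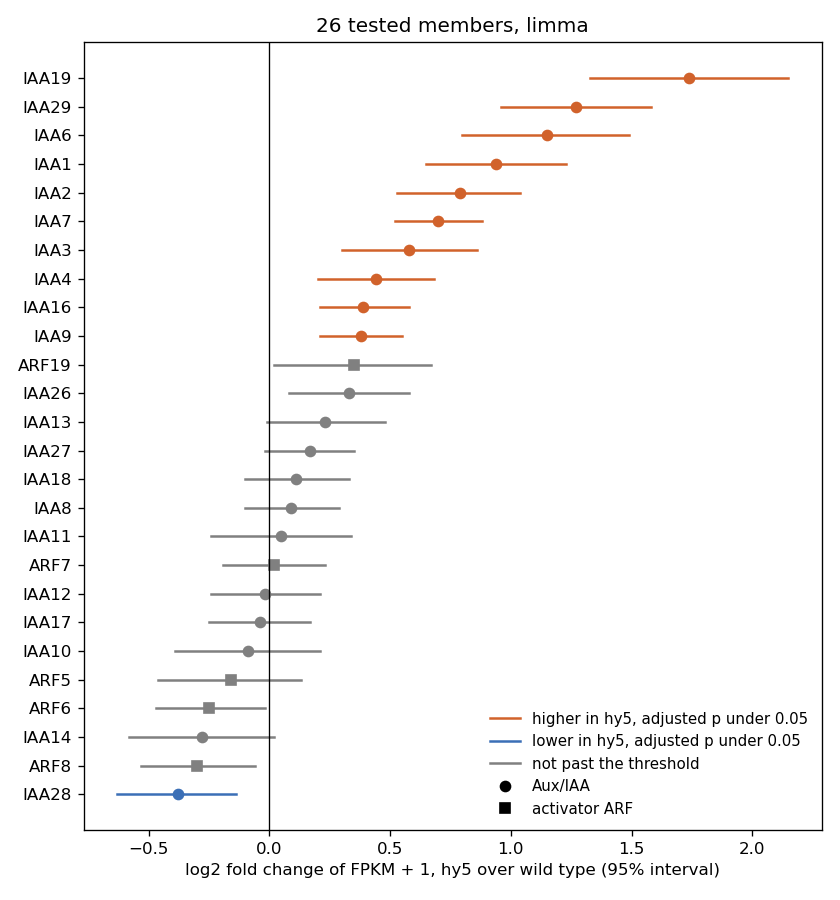
Log2 fold changes of the 26 tested members, hy5 over wild type, with 95% intervals from limma. Circles are Aux/IAA genes, squares activator ARFs, orange marks the 10 rises and blue the fall of IAA28, and the 5 squares are all grey.

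IAA19, IAA29 and IAA6 are described first, being furthest from 0 on the log2(FPKM + 1) scale, although the place of IAA6 depends on the pseudocount. IAA19 (AT3G15540), also known as MSG2, whose stabilised form impairs hypocotyl bending and lateral root formation, measured 2.78, 3.48 and 1.70 FPKM in wild-type libraries 1, 2 and 3, against 9.87, 9.64 and 13.7 FPKM in hy5 libraries 4, 5 and 6. The groups were well apart, the lowest hy5 library standing above the highest wild-type one. The log2 fold change of IAA19 was 1.74 (SE 0.19, 95% interval 1.33 to 2.15, limma adjusted p = 5.5e-05).

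IAA29 (AT4G32280), an Aux/IAA gene known as a shade-induced target of phytochrome-interacting factors, measured 6.48, 7.22 and 4.41 FPKM in the wild-type libraries, against 16.8, 14.8 and 15.6 FPKM in those of the mutant. Its hy5 libraries lay close together and did not overlap with wild type. The log2 fold change of IAA29 was 1.27 (SE 0.14, limma adjusted p = 4.8e-05).

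IAA6 (AT1G52830), known as SHY1 and closely related to IAA19, measured 0.0518, 0.221 and 0.152 FPKM in the wild-type libraries, against 1.43, 1.15 and 2.07 FPKM in those of the mutant. This low gene was near the bottom of the scale in wild type, so the ratio of its means, 10.9, is imprecise. Its log2 fold change was 1.15 (SE 0.16, limma adjusted p = 0.00028) and ran from 0.35 with a pseudocount of 5 to 2.80 with a pseudocount of 0.1. IAA5 (AT1G15580), the third gene of this clade, measured 0.46, 0.408 and 0.746 FPKM in the wild-type libraries, against 1.49, 1.09 and 0.844 FPKM in those of the mutant. The groups did not overlap, but IAA5 reached 1 FPKM in 2 libraries and was not tested. With no filter on low values its log2 fold change was 0.47 (limma adjusted p = 0.049).

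The promoters of IAA6 and IAA19 are printed because both genes rose and because these 2 promoters had the highest score of all clade mates aligned over the 250 bases before the annotated start. The best local alignment held 172 columns, 70.3% of them identical, with a longest identical run of 23 bases. Capitals mark the auxin response element TGTCTC or its reverse complement, and the G-box CACGTG, a sequence that HY5 and phytochrome-interacting factors are known to bind.
IAA6, chr1:19673695-19673858, minus strand: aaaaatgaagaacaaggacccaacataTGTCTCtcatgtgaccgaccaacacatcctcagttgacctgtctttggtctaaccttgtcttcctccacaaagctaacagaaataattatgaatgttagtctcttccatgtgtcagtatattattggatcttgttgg
IAA19, chr3:5263791-5263961, plus strand: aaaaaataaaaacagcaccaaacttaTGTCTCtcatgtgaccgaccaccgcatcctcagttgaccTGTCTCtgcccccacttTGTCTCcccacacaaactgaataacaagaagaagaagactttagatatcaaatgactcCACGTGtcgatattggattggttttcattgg
In IAA19 the element TGTCTC began 184, 145 and 128 bases before the start, and the G-box began 70 bases before it. IAA6 had the first of these TGTCTC copies, beginning 179 bases before its start, in a stretch shared with IAA19, and held no G-box in its 1000 bases. Another pair of promoters that align belongs to IAA20 and IAA30 (AT3G62100), which stayed below 1 FPKM in all 6 libraries. They are shown because each holds a G-box and TGTCTC, as IAA19 does and IAA6 does not. Their alignment held 115 columns, 76.5% identical.
IAA20, chr2:19307560-19307674, plus strand: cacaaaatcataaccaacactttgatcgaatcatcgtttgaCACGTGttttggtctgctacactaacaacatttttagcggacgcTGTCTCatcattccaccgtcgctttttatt
IAA30, chr3:22995546-22995659, plus strand: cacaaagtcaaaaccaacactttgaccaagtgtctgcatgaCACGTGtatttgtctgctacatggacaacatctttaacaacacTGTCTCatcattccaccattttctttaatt
Over both strands of the 250 bases, TGTCTC occurred in 9 of the 29 Aux/IAA promoters, beside 10.9% of all 26983 promoters of that length. The G-box occurred in 4 of 29, beside 6.47%, and TGTCGG, a further auxin response element, in 6 of 29, beside 4.18%. Of the 10 genes that rose, 3 had TGTCTC, 2 had a G-box and 2 had TGTCGG, and of the other 19 the counts were 6, 2 and 4. The other 19 include the 8 untested genes below the filter, so these counts do not compare genes that rose with tested genes that did not. Untested were IAA5, IAA20, IAA30, IAA32 and IAA34 among those with TGTCTC, IAA20 and IAA30 with the G-box, and IAA5 with TGTCGG. In 1000 bases, TGTCTC occurred in 6 of the 10 genes that rose and 11 of the other 19, beside 39.6% of all promoters. The G-box occurred there in 4 of the 10 and 4 of the other 19, beside 14.8%, and TGTCGG in 3 of the 10 and 5 of the other 19, beside 14.6%. Of the other genes with a G-box there, IAA11 was tested and IAA5, IAA20 and IAA30 were not. Untested were also IAA5, IAA20, IAA30, IAA31, IAA32 and IAA34 among those with TGTCTC, and IAA5 with TGTCGG. The motifs do not overlap one another in the sequences printed, and a match describes letters and no binding.

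The sister genes IAA1 and IAA2, early auxin-induced genes whose coding sequences were 83.6% identical, both rose. IAA1 (AT4G14560) measured 4.17, 4.68 and 3.63 FPKM in the wild-type libraries, against 8.18, 8.10 and 10.5 FPKM in those of the mutant (log2 fold change 0.94, SE 0.14, limma adjusted p = 0.00032). IAA2 (AT3G23030) measured 34.2, 39.3 and 29.2 FPKM in the wild-type libraries, against 61.2, 51.3 and 66.4 FPKM in those of the mutant (log2 fold change 0.79, SE 0.12, limma adjusted p = 0.00045). The 2 genes thus kept their order, IAA2 being the more abundant in every library, and neither overlapped between genotypes.

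IAA3 (AT1G04240), known as SHY2, whose stabilised form suppresses a phytochrome chromophore mutant and limits the root meristem, measured 38.5, 40.5 and 28.9 FPKM in the wild-type libraries, against 53.8, 47.2 and 60.9 FPKM in those of the mutant. Its libraries did not overlap between genotypes, with a gap narrower than that of IAA2. The log2 fold change of IAA3 was 0.58 (SE 0.13, limma adjusted p = 0.0071). IAA3 overlaps AT1G04230 on the opposite strand over 640 bases, and that gene was at 3.21 FPKM in wild type and 3.25 FPKM in hy5 on average. Its sister IAA4 (AT5G43700) measured 85.4, 76.2 and 67.2 FPKM in the wild-type libraries, against 109, 89.3 and 115 FPKM in those of the mutant (log2 fold change 0.44, SE 0.11, limma adjusted p = 0.012). The IAA4 groups were separated by the narrow step from 85.4 to 89.3 FPKM, and with library hy5 4 left out it no longer passed (limma adjusted p = 0.051), nor with hy5 6 left out (0.068).

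The clade of IAA7, IAA14, IAA16 and IAA17 split. IAA7 (AT3G23050), known as AXR2, whose stabilised form makes dwarf plants that do not respond to gravity, measured 68.5, 67.1 and 65.7 FPKM in the wild-type libraries, against 107, 105 and 117 FPKM in those of the mutant. Both genotypes were tight and far apart, and the log2 fold change was 0.70 (SE 0.083, limma adjusted p = 7e-05). IAA16 (AT3G04730), the most abundant Aux/IAA transcript in both genotypes, measured 123, 119.8 and 111 FPKM in the wild-type libraries, against 158, 144 and 164 FPKM in those of the mutant (log2 fold change 0.39, SE 0.087, limma adjusted p = 0.006).

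The other pair of this clade did not pass. IAA14 (AT4G14550), known as SLR, whose stabilised form blocks lateral root initiation, measured 6.32, 8.65 and 6.74 FPKM in the wild-type libraries, against 5.24, 5.37 and 6.70 FPKM in those of the mutant. These ranges overlapped, with a log2 fold change of -0.28 (95% interval -0.58 to 0.02, limma adjusted p = 0.17). IAA17 (AT1G04250), known as AXR3, measured 31.3, 32.8 and 30.7 FPKM in the wild-type libraries, against 31.1, 27.4 and 33.9 FPKM in those of the mutant, with a 95% interval of -0.25 to 0.17 for its log2 fold change (limma adjusted p = 0.81). The ratio of IAA7 to IAA14 was 7.76 to 10.8 in the wild-type libraries and 17.5 to 20.4 in the hy5 libraries, and these ranges did not overlap. The IAA7 promoter is printed because its G-box, in capitals, lay 22 bases before the annotated start, the nearest of the 4 such promoters.
IAA7, chr3:8194356-8194605, plus strand: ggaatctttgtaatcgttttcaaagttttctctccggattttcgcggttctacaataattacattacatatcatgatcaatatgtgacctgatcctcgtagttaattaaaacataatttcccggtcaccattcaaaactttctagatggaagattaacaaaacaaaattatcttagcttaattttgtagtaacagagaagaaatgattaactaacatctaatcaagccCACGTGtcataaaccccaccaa

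Among IAA8, IAA9 and IAA27, IAA9 alone passed. IAA9 (AT5G65670), a gene whose tomato counterpart restrains fruit set and shapes the leaf, measured 85.7, 80.3 and 78.8 FPKM in the wild-type libraries, against 105, 108 and 106 FPKM in those of the mutant (log2 fold change 0.38, SE 0.081, limma adjusted p = 0.0048). IAA8 (AT2G22670) averaged 73.6 ± 6.70 FPKM in wild type against 78.4 ± 3.19 FPKM in the mutant (SD, n = 3 each), with overlapping libraries and a 95% interval of -0.10 to 0.29. IAA27 (AT4G29080), first described as a protein that binds phytochrome and also named PAP2, measured 26.6, 24.9 and 26.6 FPKM in the wild-type libraries, against 28.9, 29.2 and 29.8 FPKM in those of the mutant. Its groups did not overlap, yet the difference was small and did not pass (log2 fold change 0.17, 95% interval -0.02 to 0.35, limma adjusted p = 0.18). The ratio of IAA8 to IAA9 was 0.836 to 0.97 in wild type and 0.719 to 0.762 in hy5.

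IAA28 (AT5G25890), whose stabilised form reduces lateral roots, was the one Aux/IAA gene that fell. It measured 14.0, 11.6 and 14.4 FPKM in the wild-type libraries, against 10.6, 9.08 and 10.3 FPKM in those of the mutant, with no overlap (log2 fold change -0.38, SE 0.11, limma adjusted p = 0.028). The call was fragile, being lost without wild type 1 (limma adjusted p = 0.088), wild type 3 (0.054), hy5 4 (0.059), hy5 5 (0.096) or hy5 6 (0.077). Its relatives IAA18 and IAA26 did not pass. IAA26 (AT3G16500), also named PAP1 and likewise found as a phytochrome-binding protein, measured 10.3, 10.3 and 9.15 FPKM in the wild-type libraries, against 12.4, 11.4 and 14.5 FPKM in those of the mutant (log2 fold change 0.33, 95% interval 0.08 to 0.58, limma adjusted p = 0.054). It passed with median ratio scaling (limma adjusted p = 0.036), with quantile normalization (0.038) and without hy5 5 (0.043).

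The remaining tested genes, IAA10 (AT1G04100), IAA11 (AT4G28640), IAA12, IAA13 (AT2G33310) and IAA18 (AT1G51950), all overlapped between genotypes. IAA12 (AT1G04550), known as BDL, which with ARF5 sets up the embryonic root, averaged 15.4 ± 1.25 FPKM in wild type against 15.2 ± 1.45 FPKM in the mutant (SD, n = 3 each), with a 95% interval of -0.24 to 0.21 for the log2 fold change. Its sister IAA13 was at 18.6 ± 2.68 and 21.9 ± 1.97 FPKM (SD, n = 3 each), and without wild type 1 it came near the threshold (limma adjusted p = 0.054). IAA18 was at 25.2 ± 2.65 and 27.2 ± 1.38 FPKM (SD, n = 3 each). IAA10 and IAA11 were low, with means of 1.87 and 5.01 FPKM in wild type and 1.70 and 5.20 FPKM in hy5. Without strand in the counting, which the sources used here do not state, reads of IAA13 cannot be told from those of AT2G33300, which overlaps it on the opposite strand over 1176 bases and was listed at 0 in wild type.

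Below the filter, IAA20 (AT2G46990), which lacks the degron core, measured 0.143, 0.152 and 0.046 FPKM in the wild-type libraries, against 0.185, 0.288 and 0.285 FPKM in those of the mutant, without overlap. IAA30, its sister, measured 0.73, 0.977 and 0.595 FPKM in the wild-type libraries, against 0.535, 0.616 and 0.973 FPKM in those of the mutant, and these ranges overlapped. IAA31 (AT3G17600), IAA32 (AT2G01200), IAA33 (AT5G57420) and IAA34 (AT1G15050) stayed at or under 0.54 FPKM in every library. IAA32 overlaps AT2G01210 on the opposite strand over 826 bases, a gene at 3.66 FPKM in wild type and 2.78 FPKM in hy5. IAA34 overlaps AT1G15060 on the same strand over 156 bases, a gene at 11.0 and 9.4 FPKM. The low values of IAA32 and IAA34 are uncertain to that extent. IAA15 (AT1G80390) was listed at 0.108 FPKM in wild type 1 and at 0 in the other 5 libraries. At these levels no member was tested.

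The activator ARFs are the DNA-binding partners of the repressors, and none of them passed. ARF5 (AT1G19850), known as MP, which patterns the embryo axis and the veins, measured 10.5, 10.8 and 7.29 FPKM in the wild-type libraries, against 8.0, 8.82 and 8.10 FPKM in those of the mutant. Wild type 3 stood below all hy5 libraries while wild type 1 and 2 stood above them, and ARF5 passed as lower without wild type 3 (limma adjusted p = 0.032 against 0.43 with it).

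ARF6 and ARF8 act together in hypocotyl elongation and flower maturation. ARF6 (AT1G30330), the most abundant of the 5, measured 16.7, 20.6 and 18.2 FPKM in the wild-type libraries, against 15.8, 14.2 and 16.1 FPKM in those of the mutant (log2 fold change -0.25, 95% interval -0.47 to -0.02, limma adjusted p = 0.11). ARF8 (AT5G37020) measured 11.7, 13.1 and 11.0 FPKM in the wild-type libraries, against 9.73, 8.82 and 9.98 FPKM in those of the mutant (log2 fold change -0.30, 95% interval -0.53 to -0.06, limma adjusted p = 0.066). Neither overlapped between genotypes, a pattern in the lower direction that 19.5% of all tested genes had. ARF8 passed as lower without wild type 3 (limma adjusted p = 0.029) and with each of the median ratio (0.042), upper quartile (0.036) and quantile (0.029) scalings.

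ARF7 (AT5G20730), known as NPH4, and ARF19 act in phototropism and lateral root formation. ARF7 measured 12.2, 12.5 and 12.2 FPKM in the wild-type libraries, against 12.6, 12.1 and 12.6 FPKM in those of the mutant, with overlapping libraries and a 95% interval of -0.19 to 0.23 for the log2 fold change. It overlaps CPN20 on the opposite strand over 254 bases, a gene at 202 FPKM in wild type and 174 FPKM in hy5, so part of its signal is uncertain if strand was not used. ARF19 (AT1G19220), itself an auxin-induced gene, measured 5.08, 4.29 and 3.46 FPKM in the wild-type libraries, against 6.25, 4.63 and 6.22 FPKM in those of the mutant (log2 fold change 0.35, 95% interval 0.02 to 0.67, limma adjusted p = 0.12). The ARF19 ranges overlapped through wild type 1 and hy5 5. For the 5 activator ARFs limma called 0 in either direction, beside 22.8% of all genes tested, a share at which few calls among 5 genes would be seen. An unadjusted limma p under 0.05 was reached by 1 upward and 2 downward, and the share of all genes at that threshold was not computed.

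Added up, transcripts of the 29 Aux/IAA genes came to 689, 675 and 605 FPKM in wild type 1, 2 and 3 and to 867, 813 and 923 FPKM in hy5 4, 5 and 6. The 5 activator ARFs came to 56.1, 61.3 and 52.2 FPKM in wild type and to 52.3, 48.6 and 53.1 FPKM in hy5. The Aux/IAA sums were separated between genotypes and the ARF sums overlapped. The ratio of the sums was 12.3, 11.0 and 11.6 in wild type and 16.6, 16.7 and 17.4 in hy5. These sums are descriptions of transcripts, and Aux/IAA protein was not measured.

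**Figure D3:**
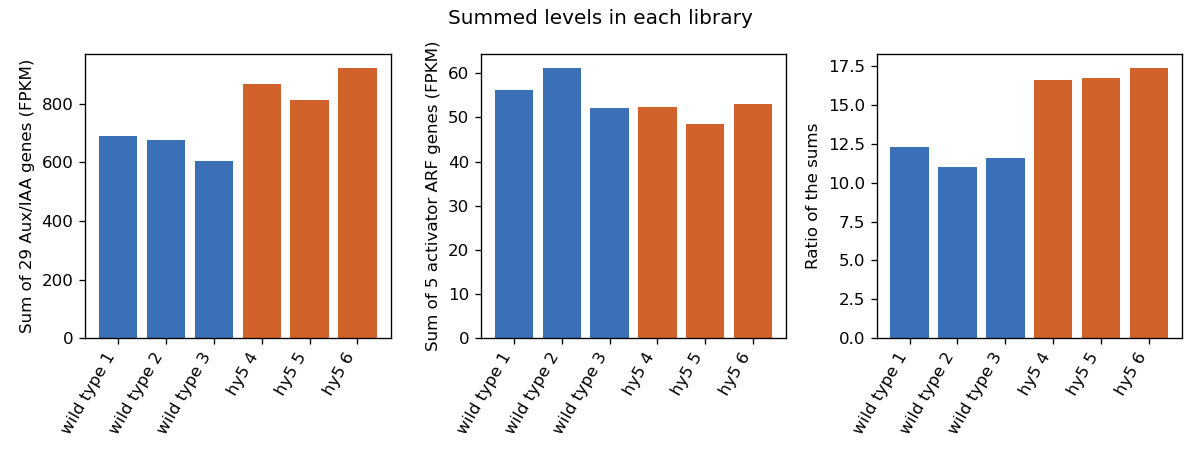
Summed FPKM of the 29 Aux/IAA genes, summed FPKM of the 5 activator ARF genes and the ratio of these sums, with 1 bar per library, blue for wild type and orange for hy5-215, on axes from 0. The Aux/IAA bars run from 605 to 689 in wild type and from 813 to 923 in hy5, while the ARF bars overlap.

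In the genome, 6 of the Aux/IAA genes form 3 adjacent pairs, with no other gene of the tables between the partners. Each pair joins a gene of the IAA1 to IAA4 group with a gene of the IAA7 clade, the partners being transcribed away from each other. IAA14 (chr4:8347822-8350263, minus strand) and IAA1 (chr4:8360996-8362033, plus strand) are 10732 bases apart. IAA2 (chr3:8180646-8182095, minus strand) and IAA7 (chr3:8194606-8197161, plus strand) are 12510 bases apart. IAA3 (chr1:1128149-1129689, minus strand) and IAA17 (chr1:1136078-1138663, plus strand) are 6388 bases apart. IAA1, IAA2 and IAA3 all rose, and of their neighbours IAA7 rose while IAA14 and IAA17 did not pass. The ratio of IAA1 to IAA14 was 0.539 to 0.66 in wild type and 1.51 to 1.57 in hy5, so the more abundant partner changed. The ratio of IAA3 to IAA17 was 0.942 to 1.24 in wild type and 1.72 to 1.80 in hy5, and that of IAA2 to IAA7 overlapped between genotypes.

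**Figure D4:**
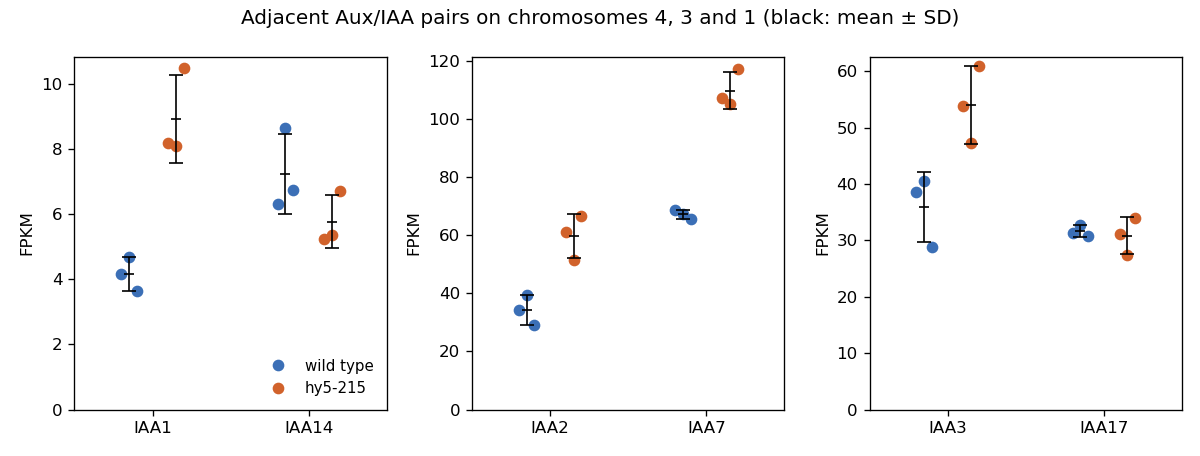
FPKM of the partners in each of the 3 adjacent Aux/IAA pairs, with 1 point per library, blue for wild type, orange for hy5-215 and black marks for the mean ± SD of 3 libraries. IAA1, IAA2, IAA3 and IAA7 are separated by colour, and IAA14 and IAA17 are not.

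Receptors, co-repressors, other ARFs and ubiquitin ligase subunits of the same pathway were set beside the members. Of 34 such genes with values, 26 were tested. An unadjusted limma p under 0.05 was reached by 2 upward and 6 downward, but the share of all genes at that threshold was not computed. At an adjusted p of 0.05, 0 rose and 1 fell by limma, beside 11.7% and 11.1% of all genes. The one that fell was TPL, the TOPLESS co-repressor recruited by Aux/IAA proteins, with 76.7, 88.4 and 80.2 FPKM in the wild-type libraries, against 63.7, 56.9 and 61.1 FPKM in those of the mutant (log2 fold change -0.43, SE 0.089, limma adjusted p = 0.0041). The related TPR2, TPR3 and TPR4 also had no overlap, all being lower in hy5, a pattern that 19.5% of all tested genes had. They did not pass (limma adjusted p = 0.069, 0.074 and 0.12). TPR2 passed as lower with upper quartile (limma adjusted p = 0.04) and quantile (0.035) scaling. TPR3 did so with upper quartile scaling (0.047) and without wild type 3 (0.035).

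None of the 6 auxin receptor genes was called by limma, beside 22.8% of all genes, a share at which few calls among 6 genes would be seen. None of them reached an unadjusted limma p under 0.05, for which the share of all genes was not computed. TIR1, the founding receptor, measured 70.9, 78.9 and 93.2 FPKM in the wild-type libraries, against 79.2, 74.9 and 80.8 FPKM in those of the mutant, which overlapped. The other receptors AFB1 to AFB5 had log2 fold changes between -0.10 and 0.11. CUL1, the scaffold of the ubiquitin ligase, was at 65.0 ± 8.08 and 78.9 ± 3.94 FPKM (SD, n = 3 each; limma adjusted p = 0.057). It passed as higher with median ratio scaling (limma adjusted p = 0.049) and without wild type 1 (0.035). SGT1B of the same list was at 47.7 ± 4.38 and 56.7 ± 3.36 FPKM (SD, n = 3 each; limma adjusted p = 0.071) and passed as higher without wild type 1 (0.04). CUL1 and SGT1B did not overlap between genotypes, a pattern in the higher direction that 20.6% of all tested genes had. Of the 18 other ARF genes, most of them repressors or of unknown activity, 10 were tested and 8 were below the filter. Of the 10, limma called 0, beside 22.8% of all genes, a share at which few calls among 10 genes would be seen. An unadjusted limma p under 0.05 was reached by 0 upward and 2 downward, again without a share of all genes at that threshold.

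**Figure D5:**
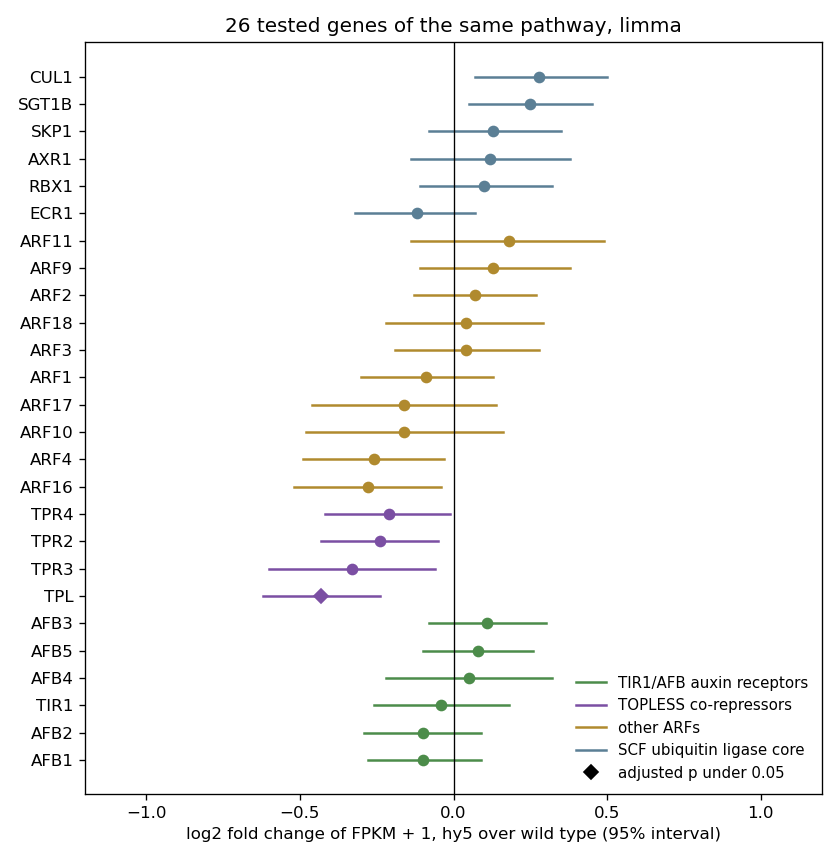
Log2 fold changes of the 26 tested receptor, co-repressor, other ARF and ubiquitin ligase genes, hy5 over wild type, with 95% intervals from limma and colours by list. The diamond marks TPL at -0.43, the one gene past the threshold, and the other 3 co-repressors lie to the left of 0 as well.

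Libraries of a genotype kept a similar order over many of the genes that rose. Wild type 3 was the lowest wild-type library for 9 of the 10, and hy5 5 was the lowest hy5 library for 9 of the 10. Values of the members were therefore not independent of one another. Without wild type 3, 10 Aux/IAA genes rose, and without hy5 4 or hy5 6 it was 8. IAA6 fell below the filter, and was not tested, whenever a hy5 library was left out. Markers of other tissues were measured beside these results. The 6 seed storage and oil body markers summed to 39.5, 258 and 92.4 FPKM in wild type and 9.96, 1.59 and 1.58 FPKM in hy5, with SESA1, SESA3 and SESA5 listed at 0 in 1 or 2 of the hy5 libraries. Every one of the 6 was lower in each hy5 library than in any wild-type library, a pattern that 19.5% of all tested genes had. By limma SESA1, SESA3, SESA5 and OLEO1 fell, 4 of the 6 tested, beside 11.1% of all genes. The 3 SESA genes passed the filter only through wild type. All 4 calls were lost with a pseudocount of 5 (limma adjusted p = 0.062 to 0.12) and without hy5 4 or hy5 6 (0.051 to 0.19). The 8 root markers summed to 39.7 to 47.2 FPKM in wild type and 41.4 to 43.0 FPKM in hy5. That sum rests mainly on SCR, with means of 19.2 FPKM in wild type and 17.2 FPKM in hy5, and SHR, with 15.4 and 19.0 FPKM. COBL9 and EXPA7 were at 67.2% and 69.9% of their wild-type means, with overlapping libraries and no call. Log2 fold changes were positive for 1 and negative for 3 of the tested root markers. Of the 4 root markers tested, only SHR was called, as higher, beside 11.7% of all genes higher and 11.1% lower. That call was lost in 5 of the 6 fits leaving out a library (limma adjusted p = 0.092 to 0.15). RHD6, WOX5, PLT1 and PLT2 were below the filter and not tested. PLT1 measured 0.279, 0.132 and 0.229 FPKM in wild type against 0.409, 0.31 and 0.777 FPKM in hy5, higher without overlap. RHD6, WOX5 and PLT2 overlapped between genotypes. Of the 6 leaf and shoot markers tested, limma called 1 higher and 2 lower, beside 11.7% and 11.1% of all genes. STM rose and SPCH fell in every fit that tested them. GIF1 fell but lost the call without wild type 1, wild type 2, hy5 4 or hy5 6 (limma adjusted p = 0.09 to 0.15) and with no filter (0.054). KAN1, FAMA and RBCS1A were not called. GL1 was below the filter and not tested. It measured 1.73, 2.06 and 0.577 FPKM in wild type against 0.289, 0.0418 and 0.0831 FPKM in hy5, without overlap. The part of the seed, root and shoot markers in the results of the members was not tested.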

How the data were processed

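RNA-seq was done on 6 seedling libraries, 3 per genotype, grouped by their titles. The authors deposited FPKM per gene and library, per the file headers. Trimmomatic 0.36, HISAT2 2.2.1.0, Cufflinks, TopHat, Bowtie2 and DESeq 1.18.0, with the build TAIR10, are listed without roles among the submitters' processing notes. Annotation, strand use and the handling of reads shared by similar genes were not given in the sources used here, so values of close relatives and of genes that overlap are uncertain to that extent, and the absolute depth is unknown.

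From these values, log2(FPKM + 1) was computed. The filter asked for 1 FPKM or more in 3 or more libraries and left 17205 genes, to which limma 3.58.1 in R 4.3.3 was fitted with a genotype term, a variance trend, robust empirical Bayes moderation and Benjamini-Hochberg adjustment. The fit was also run on simulated data with 200 changed genes and noise drawn independently for each gene. That setting differs from these data, so the calls here do not rest on it. Compared to the last deposited digit, with no rounding, 0 values above 0 were equal between any pair of libraries. Names, coordinates and sequences came from RefSeq TAIR10.1 by locus tag, where all 34 members matched. Motifs were counted and sequences aligned in Python 3.11.15 with Biopython 1.88.

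By rule, values in every library are given for members past the threshold, the activator ARFs, HY5 and called genes of the pathway lists. Further members and genes shown with values were picked after their values were seen. The members and lists were chosen with earlier results of these data known. TPR1 and ASK2 were not analysed here.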

Additional observations from a re-analysis of the deposited data

How the results depend on the processing

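Alternatives were pseudocounts of 0.1 and 5, no filter, a filter at 5 FPKM, median ratio, upper quartile and quantile scaling, a fit without trend or robust moderation, leaving out each library, and a filter on the mean, chosen after seeing the data. No called member nor TPL changed sign. Of the members not called, log2 fold changes near 0 did: without each library IAA11 (0.05) ran from -0.04 to 0.14, IAA12 (-0.02) from -0.09 to 0.04 and IAA17 (-0.04) from -0.11 to 0.04, and ARF7 (0.02) came to -0.00 under upper quartile and quantile scaling. Aux/IAA genes that rose numbered 8 to 10 without each library and 9 to 11 otherwise. Aux/IAA genes that fell numbered 0 to 1 without each library. Activator ARFs that rose numbered 0 in every fit, and those that fell numbered 1 under median ratio, upper quartile and quantile scaling, and 0 to 2 without each library, with 2 (ARF5 and ARF8) without wild type 3. In the pathway lists, 1 gene rose under median ratio scaling and 0 to 2 without each library, with 2 without wild type 1, while 3 fell under upper quartile scaling, 2 under quantile scaling and 1 to 2 without each library. Over all genes, 2010 rose and 1905 fell. Without each library these were 952 to 2059 and 1076 to 2250, the fewest without hy5 6, and without hy5 4 they were 1043 and 1158. The cause was not tested. No scaling moved the median of all genes by over 0.1 (log2). No paired analysis was possible because the genotypes share no library number. Levels below 1 FPKM limit what can be said of the 8 untested Aux/IAA genes.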

Other observations

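The make-up of the Aux/IAA pool was described beside its size. IAA16, IAA9, IAA4, IAA8 and IAA7 were the 5 most abundant Aux/IAA transcripts in both genotypes and held 62.4% to 64.2% of the summed Aux/IAA FPKM in wild type and 62.7% to 65.0% in hy5. IAA7 went from the 5th rank in wild type to the 2nd in hy5, with mean shares of 10.3% and 12.7%. IAA8 held 11.2% of the pool in wild type and 9.08% in hy5. IAA29 went from a mean share of 0.913% to 1.82%, IAA19 from 0.40% to 1.27% and IAA28 from 2.05% to 1.15%. Among the activator ARFs, ARF6 was first in both genotypes, with 32.7% and 29.9% of the summed ARF FPKM, and ARF19 was last, with 7.56% and 11.1%. Shares within a pool move with the other members and were not tested.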
